A study of Mus musculus with 5 samples.

Results

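Engaged RNA polymerase was followed on the replication-dependent histone genes of the mouse, which were taken as every protein-coding gene of the GENCODE annotation of mm9 whose symbol starts with Hist1h, Hist2h, Hist3h or Hist4h. The rule found 67 genes among 22367 protein-coding genes outside the mitochondrial genome. By the symbol they fall into 6 H1, 19 H2A, 18 H2B, 11 H3 and 13 H4 genes. Also by the symbol, 55 belong to Hist1 (chromosome 13) and 9 to Hist2 (chromosome 3). Another 2 belong to Hist3 (chromosome 11) and 1 to Hist4 (chromosome 6). Hist1h2al, at chr13:51298057-51298434, carries a Hist1 symbol but lies apart from the other Hist1 genes on that chromosome. The series held 3 global run-on samples of V6.5 stem cells from mouse embryos (MESC, passages 12 to 14, grown with LIF over irradiated feeder cells) and 2 of fibroblasts from mouse embryos (MEF, isolated from male embryos at E13.5, passage 2, grown without LIF). Both carry the same strain label, C57Bl/6(f) x 129/Sv(m), no gene was altered, and no treatment separates them. MESC came from 1 line, and how many embryos gave the MEF is not given in the sources used here. In a global run-on, polymerases in isolated nuclei go on transcribing with a bromine-labelled nucleotide, and the labelled RNA is captured and sequenced. Reads show where polymerase was engaged and on which strand rather than how much stable RNA was present.

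Replication-dependent histone genes supply the core histones H2A, H2B, H3 and H4 and the linker histone H1 that package newly copied DNA, and they are transcribed mainly in S phase. Their messages are the only abundant animal mRNAs without a poly(A) tail. The pre-mRNA is cut a few bases after a conserved stem-loop that the stem-loop binding protein holds, with the U7 small nuclear RNP pairing to an element further downstream. Embryonic stem cells have a short G1 phase, so a large share of such a culture is in S phase at any time.

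The deposited files pool the samples of each cell type, so there was 1 read set per cell type and no replicate check of any difference below. The MESC read set held 8571395 reads outside the mitochondrial genome and the MEF read set 6571116. Density is given as RPKM, reads per kb and per 1000000 of these reads, and the ranges in parentheses are exact 95% intervals, which cover only counting error. Reads carry no molecular identifiers and are not independent molecules. Marker genes went with the labels: each of 7 stem cell markers, Pou5f1 and Nanog among them, was past 4-fold in MESC, and each of 7 fibroblast markers, Col1a1 among them, was past 4-fold in MEF. The summed density of the fibroblast markers in MESC was 1.99% of that in MEF, with none of the 7 at 0 reads, and the MESC were grown on feeder cells. Of 4 blood and macrophage markers, 3 were past 4-fold in MEF. The summed density of the 4 was 9.21 RPKM in MESC and 18.7 RPKM in MEF. Nearly all of it was Cd68, the marker not past 4-fold, at 9.20 RPKM in MESC and 18.0 RPKM in MEF. All 3 epithelial markers and 2 of 4 neural markers passed 4-fold in MESC, with summed densities of 8.89 and 6.77 RPKM in MESC and 0.29 and 3.66 RPKM in MEF. No endothelial or muscle marker passed 4-fold. Whether these marker reads came from other cell types or from the MESC and MEF themselves was not tested. The part of any such cells in the histone values was not tested either.

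A match to the histone stem-loop was found between 250 and 1000 bp past the start codon in 64 of the 67 genes. It ended at a median of 702 bp from the start codon in H1, 445 bp in H2A, 426 bp in H2B, 458 bp in H3 and 361 bp in H4 genes. Only 8 different 16-base stem-loops occurred, and 40 of the 64 genes shared 1 of them. The stem-loops below mark the reference point of the measurements past the gene end. They are read 5′ to 3′ on the sense strand from NCBIM37, the assembly that mm9 names, with the 16 bases of stem and loop in capitals and 5 flanking bases on each side in lower case.
Hist1h1a (H1, chr13:23856256-23856281, plus strand): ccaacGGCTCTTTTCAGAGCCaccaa
Hist1h2ad (H2A, chr13:23666759-23666784, plus strand): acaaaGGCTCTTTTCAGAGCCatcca
Hist1h2bk (H2B, chr13:22128164-22128189, plus strand): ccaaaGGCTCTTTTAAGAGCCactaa
Hist1h3c (H3, chr13:23836911-23836936, minus strand): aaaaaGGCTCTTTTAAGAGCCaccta
Hist1h4i (H4, chr13:22132830-22132855, minus strand): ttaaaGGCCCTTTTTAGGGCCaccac
Hist4h4 (H4, chr6:136752514-136752539, minus strand): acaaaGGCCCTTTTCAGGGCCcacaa
Hist1h1a and Hist1h2ad carry the form shared by 40 genes. The form of Hist1h2bk and Hist1h3c was found in 9 genes, that of Hist4h4 in 8 and that of Hist1h4i in 2. No match was found in this window for Hist1h2al, Hist1h2an and Hist2h2be.

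H2A and H2B genes often stand head to head. Of 20 pairs of histone genes whose starts diverge within 2 kb, 12 were H2A with H2B, at 168 to 306 bp between the starts, while the pairs of other classes lay at 693 to 1862 bp. The 177 bp between Hist1h2ah (minus strand) and Hist1h2bk (plus strand) serve as an example, since both genes are described below. They are printed on the plus strand of mm9, chr13:22127513-22127689, and capitals mark matches on either strand to CCAAT, the box bound by NF-Y, to the TATA box letters TATAAA, and to ATTTGCAT, the octamer bound by Oct factors.
Hist1h2ah and Hist1h2bk: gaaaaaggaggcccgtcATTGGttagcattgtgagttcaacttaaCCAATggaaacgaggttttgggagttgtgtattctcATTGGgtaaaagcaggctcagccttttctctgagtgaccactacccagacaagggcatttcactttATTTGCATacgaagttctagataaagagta
The stretch holds CCAAT 3 times, the octamer 1 time and TATAAA 0 times, and these matches do not overlap. Among RefSeq promoters (GRCm38.p6, 250 bases before to 50 after the start, both strands searched), 60 of the 67 genes were matched through older symbols. CCAAT was in all 6 H1, 17 H2A, 16 H2B and 9 H3 promoters matched but in 3 of 12 H4 promoters (25.0%), against 37.9% of all 27025 promoters. The octamer was in 7 H2A promoters (41.2%) and 6 H2B promoters (37.5%), in none of the H1, H3 and H4 promoters, and in 1.75% of all promoters. TATAAA was in 35 of the 60 (58.3%), against 14.2% of all. Hist1h2ah and Hist1h2bk were both among these 35, so the 0 above holds only for the stretch printed, not for the RefSeq window. Promoters of a head-to-head pair share sequence, so these counts are not independent, and a match is not a binding site.

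Polymerase was more abundant on the histone genes of MESC. The 67 genes held 25022 reads in MESC and 11383 in MEF, which is 0.292% (0.288 to 0.296) of MESC reads and 0.173% (0.170 to 0.176) of MEF reads, a ratio of 1.69 (1.65 to 1.72). In bulk cultures, more cells in S phase and more polymerase per gene in each cell cannot be told apart. Of the 57 genes with at least 20 reads in 1 read set and no overlap with another gene on the same strand, 55 had a ratio above 1. The median log2 ratio, MESC over MEF, was 0.96, against 0.27 over all 11784 protein-coding genes tested by the same rule and 0.27 over 299 other tested genes under 2 kb. The median lay 0.69 above that of all genes, and 51 of the 57 lay above the all-gene median. This difference depended on the counting: it was 0.91 with MESC reads of 35 bases only, 0.53 with MESC reads of 36 bases only and 0.29 with each position and strand counted once.

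The higher density was spread over many genes, and few passed 4-fold. A ratio of 2 or more was found for 26 of the 57 (45.6%), where 20.9% of all genes tested passed in this direction, and none was past 2-fold in MEF, where 13.3% of all genes passed. With each position counted once, 7 of 54 genes (13.0%) were past 2-fold in MESC, below the 18.1% of all genes, so the excess at 2-fold was not seen under that counting. A ratio of 4 or more was found for 5 (8.77%), close to the 9.58% of all genes, and none was past 4-fold in MEF, where 5.76% of all genes passed. Of the other genes under 2 kb, 25.4% passed 2-fold and 14.0% passed 4-fold in MESC, while 13.0% and 5.35% passed them in MEF. The 5 were Hist1h1a, Hist1h1t, Hist1h2bk, Hist1h3a and Hist3h2ba. Under each other scaling tried and with each position counted once, Hist1h1t and Hist3h2ba stayed at 4-fold and the other 3 did not. These 2 are 3.51% to 3.70% of the histone genes tested, against 8.30% to 9.12% of all genes under the same settings. The counting interval lay wholly above 1 for 48 of the 57 genes, above 2 for 15, above 4 for 1 (Hist3h2ba) and below 1 for 1 (Hist2h4).

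**Figure D1:**
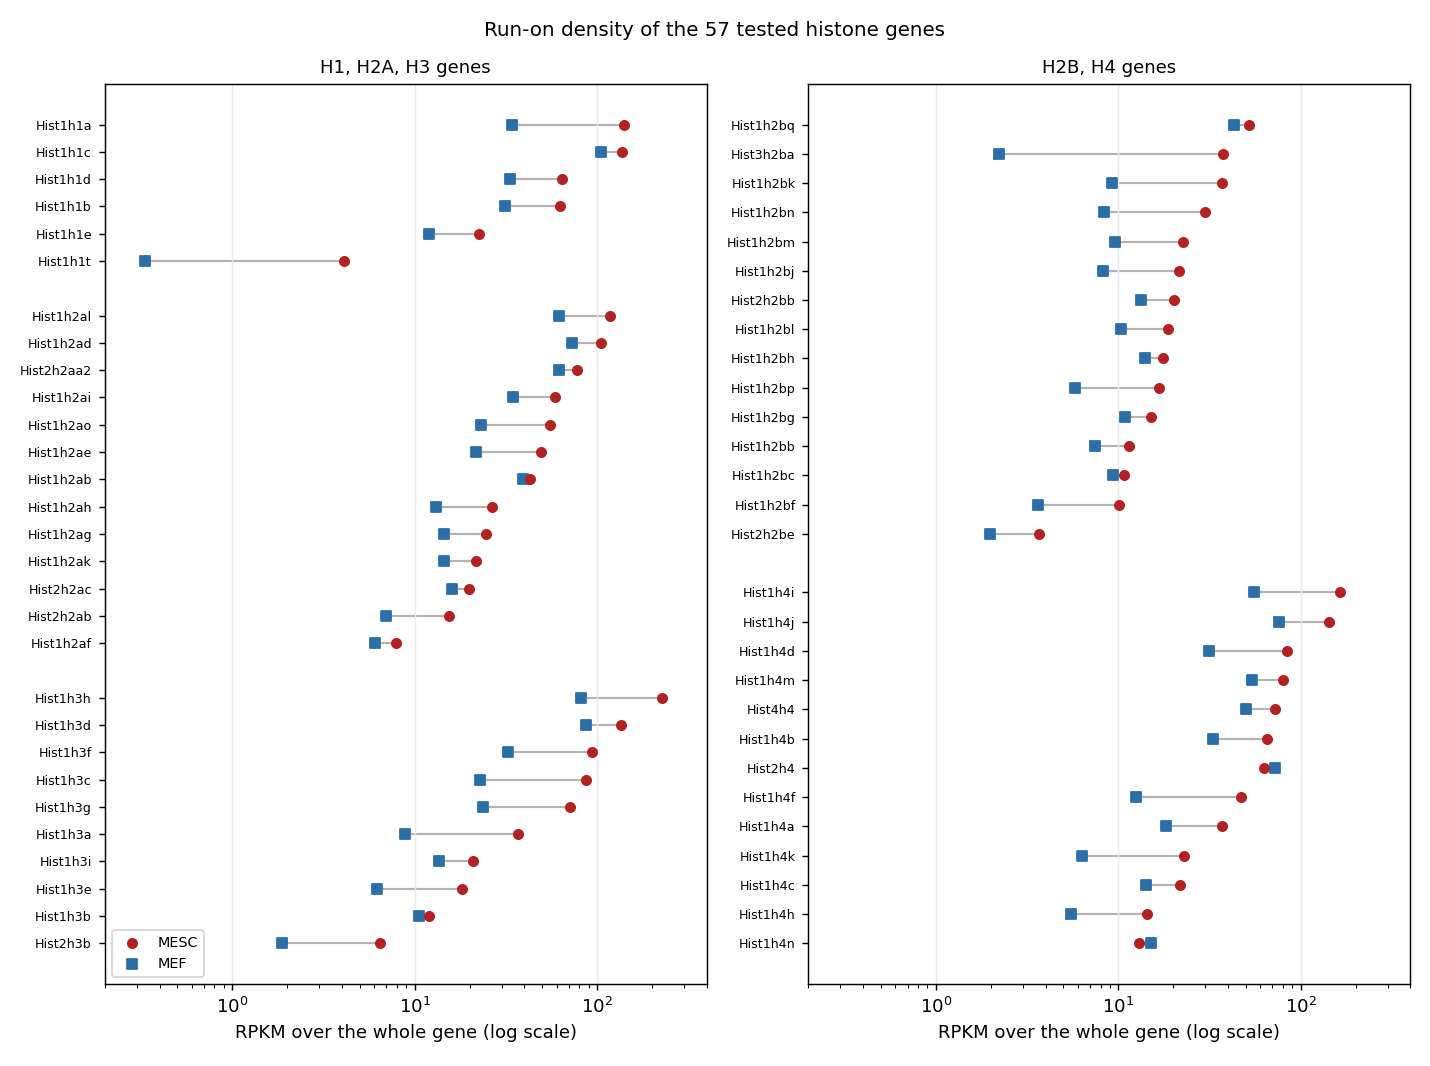
Whole-gene RPKM (log axis) of the 57 tested histone genes, with a red circle for MESC and a blue square for MEF, 1 pooled read set each with no replicate error. The MESC circle lies to the right for all genes except Hist2h4 and Hist1h4n, and Hist3h2ba and Hist1h1t have the widest gaps.

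Many histone genes are nearly identical over their coding sequence, which limits what a level of a single gene means. Over the coding regions, 35.7% of start positions gave a 35-base sequence found 1 time in the genome, 39.2% one found 2 to 10 times and 25.1% one found more often. Starts with more than 10 genome matches held 0 reads in both read sets. For 99.2% of the 1617 sequences with several matches and at least 2 reads, all reads stood at 1 copy. Hist2h2aa2 thus held 384 reads in MESC and 236 in MEF while its copy Hist2h2aa1 held 0 and 0. Hist1h2bq held 1691 reads in MESC and 1079 in MEF, and its copy Hist1h2br held 0 and 0. Hist1h2ao held 245 reads in MESC and 79 in MEF, and its copy Hist1h2ap held 0 and 0. Reads at starts that both copies share can come from either gene. Densities over unique starts only, from the annotated start to the stem-loop, were therefore set beside the whole-gene values. By that measure 47 of 48 genes with at least 20 such reads had a ratio above 1, and the median ratio was 2.05. The exception was Hist1h3b, with 40 reads in MESC and 37 in MEF and a ratio of 0.83 (0.52 to 1.33). Below that read minimum, Hist1h4m held 0 reads in MESC and 9 in MEF, a ratio of 0 (0 to 0.39). Hist1h4n, also below it, held 13 reads in MESC and 17 in MEF, a ratio of 0.59 (0.26 to 1.28).

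Among the linker histone genes, which encode the H1 proteins that bind DNA between nucleosomes, all 6 had a ratio above 1 and the median log2 ratio was 0.98. Hist1h1a (chr13:23855537-23856283, a single exon with unique sequence throughout) had the highest whole-gene density of the class in MESC, at 139.9 RPKM in MESC and 34.0 RPKM in MEF. From 896 reads in MESC and 167 in MEF its ratio was 4.11 (3.48 to 4.88). Hist1h1c, on chr13:23830676-23832235, had 137.9 RPKM in MESC and 105.1 RPKM in MEF, the highest whole-gene MEF density of all 57. It had the lowest H1 ratio, 1.31 (1.22 to 1.42), over a model that runs 839 bp past the stem-loop. Up to the stem-loop alone, at unique starts, Hist1h1c had 37.2 RPKM in MESC and 17.7 RPKM in MEF, a ratio of 2.10 (1.57 to 2.83). By the same measure Hist1h1a had 139.1 RPKM in MESC and 33.9 RPKM in MEF. Hist1h1d had 64.4 RPKM in MESC and 33.2 RPKM in MEF, a ratio of 1.94 (1.79 to 2.11). Its model runs 3050 bp past the stem-loop, and up to the stem-loop its ratio was 1.93 (1.65 to 2.26). Hist1h1b, at 62.7 RPKM in MESC and 31.3 RPKM in MEF, and Hist1h1e, at 22.5 RPKM in MESC and 12.0 RPKM in MEF, gave ratios of 2.00 and 1.87. The linker histone of spermatocytes, Hist1h1t, was low in both, with 32 reads in MESC and 2 in MEF and a ratio of 12.3 with the wide interval 3.13 to 106. The other testis histones, the head-to-head pair Hist1h2aa and Hist1h2ba, were below the read minimum. Hist1h2ba held 8 reads in MESC and 2 in MEF. For Hist1h2aa there were 12 MESC reads and 0 MEF reads, and the lower limit of the interval of its ratio was 2.13.

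The H2A genes, whose protein pairs with H2B in the nucleosome, had the smallest median log2 ratio of the classes, 0.75. All 13 tested had a ratio above 1 and 4 reached 2-fold. The classes were not tested against each other. Hist1h2al had 117.6 RPKM in MESC and 61.6 RPKM in MEF, a ratio of 1.91 (1.58 to 2.32), with 16.9% of its starts unique. Of its reads 91.3% in MESC and 88.9% in MEF stood at repeated starts. At its unique starts the ratio was 1.49 (0.81 to 2.85), an interval that includes 1. Hist1h2ad (chr13:23666250-23666821) had 104.6 RPKM in MESC and 73.2 RPKM in MEF, a ratio of 1.43 (1.23 to 1.66). Over its unique starts up to the stem-loop it had 358.5 RPKM in MESC and 253.3 RPKM in MEF, the highest level of any histone gene with at least 100 unique starts in both. These levels rest on few positions. Over the whole gene its 513 MESC reads stood at 60 distinct positions and its 275 MEF reads at 32. Hist2h2aa2 stood at 77.5 RPKM in MESC and 62.1 RPKM in MEF, a ratio of 1.25 (1.06 to 1.47). The highest ratio was that of Hist1h2ao, 2.38 (1.84 to 3.10), and the lowest that of Hist1h2ab, 1.09 (0.87 to 1.37), from 186 reads in MESC and 131 in MEF.

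Of the genes for H2B, the partner of H2A, all 15 tested had a ratio above 1, 7 reached 2-fold, and the median log2 ratio was 0.90. Hist3h2ba (chr11:58762413-58763032), the H2B gene of the small chromosome 11 cluster, held 199 reads in MESC and 9 in MEF. That is 37.4 RPKM in MESC and 2.21 RPKM in MEF, a ratio of 16.95 (8.75 to 37.6), the highest of all histone genes tested. The H2A gene Hist3h2a, its neighbour in the cluster, overlaps another gene of its strand and was not counted among the tested. Hist3h2a held 955 reads in MESC and 241 in MEF, a ratio of 3.04 (2.63 to 3.51). Its model runs 1487 bp past the stem-loop, and up to the stem-loop its ratio was 2.67 (2.25 to 3.18). Hist1h2bk (chr13:22127690-22128168) held 153 reads in MESC and 29 in MEF, a ratio of 4.04 (2.71 to 6.24), while its head-to-head partner Hist1h2ah held 121 in MESC and 46 in MEF, a ratio of 2.02 (1.42 to 2.90). Over the 8 H2A and H2B pairs with both genes tested, the partners' log2 ratios differed by a median of 0.83. Hist1h2bq had 52.1 RPKM in MESC and 43.3 RPKM in MEF over a model that runs 3334 bp past the stem-loop. Up to the stem-loop it held 0 reads at unique starts in both. The lowest ratio was that of Hist1h2bc, 1.14 (1.01 to 1.27), whose model runs 7826 bp past the stem-loop, and up to the stem-loop its ratio was 1.36 (0.89 to 2.11).

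The genes for H3, which with H4 forms the core of the nucleosome, had the largest median log2 ratio of the classes, 1.55, with 10 of 10 tested above 1 and 7 at 2-fold or more. Hist1h3h (chr13:21809497-21809984) had 227.1 RPKM in MESC, the highest MESC density of all 57, and 82.0 RPKM in MEF, a ratio of 2.77 (2.41 to 3.19). Of its reads 88.8% in MESC and 92.4% in MEF stood at repeated starts that other copies share, and at its unique starts it had 93.7 RPKM in MESC and 23.1 RPKM in MEF. Hist1h3d had 136.0 RPKM in MESC and 86.9 RPKM in MEF and a ratio of 1.57 (1.43 to 1.71). Its model runs 752 bp past the stem-loop, and up to the stem-loop its ratio was 2.04 (1.40 to 3.03). Hist1h3f had 94.0 RPKM in MESC and 32.6 RPKM in MEF and a ratio of 2.88 (2.48 to 3.37). Hist1h3a, whose start lies 1282 bp from that of Hist1h1a on the other strand, had the highest H3 ratio, 4.18 (2.84 to 6.34), from 169 reads in MESC and 31 in MEF. Hist1h3c, from 469 reads in MESC and 94 in MEF, stood just under 4-fold at 3.83 (3.06 to 4.83). The lowest was Hist1h3b at 1.14 (0.76 to 1.72).

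Of the 13 genes for H4, the partner of H3, 11 had a ratio above 1, 6 reached 2-fold, and the median log2 ratio was 0.98. Hist1h4i (chr13:22132685-22133221) had 163.8 RPKM in MESC and 55.3 RPKM in MEF, a ratio of 2.96 (2.53 to 3.49). Hist1h4j had 143.7 RPKM in MESC and 75.9 RPKM in MEF, a ratio of 1.89 (1.61 to 2.23), and Hist1h4d 84.6 RPKM in MESC and 31.4 RPKM in MEF, a ratio of 2.70 (2.10 to 3.50). Hist1h4f had the highest H4 ratio, 3.79 (2.58 to 5.72), from 158 reads in MESC and 32 in MEF. The 2 histone genes with a ratio under 1 were both H4 genes. Hist1h4n held 48 reads in MESC and 43 in MEF, a ratio of 0.86 (0.56 to 1.32), and only 6.05% of its starts are unique. Hist2h4 (chr3:96065627-96067234) held 864 reads in MESC and 762 in MEF, a ratio of 0.87 (0.79 to 0.96), but its model runs 1235 bp past the stem-loop. From its start to the stem-loop it held 43 unique reads in MESC and 20 in MEF, a ratio of 1.65 (0.95 to 2.96). Hist4h4, alone on chromosome 6, had 72.2 RPKM in MESC and 50.2 RPKM in MEF, a ratio of 1.44 (1.13 to 1.84).

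By the cluster named in the symbol, the median log2 ratio was 0.99 over 48 tested Hist1 genes, Hist1h2al among them, and 0.60 over 7 tested Hist2 genes. The 5 genes left out for few reads were Hist1h2aa, Hist1h2ba, Hist1h2an (11 reads in MESC and 8 in MEF), Hist1h2ap and Hist1h2br. The 5 left out for an overlap were Hist3h2a, Hist1h2ac (617 reads in MESC and 342 in MEF), Hist1h2be (894 reads in MESC and 784 in MEF over a 37382 bp model), Hist2h3c1 (528 reads in MESC and 171 in MEF) and Hist2h2aa1. Where the annotated model ran more than 500 bp past the stem-loop, the median whole-gene log2 ratio was 0.60 over 9 tested genes, against 1.08 over the 46 whose model ended nearer. Up to the stem-loop and over unique starts the medians of these sets were 0.98 over 7 genes and 1.09 over 39.

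**Figure D2:**
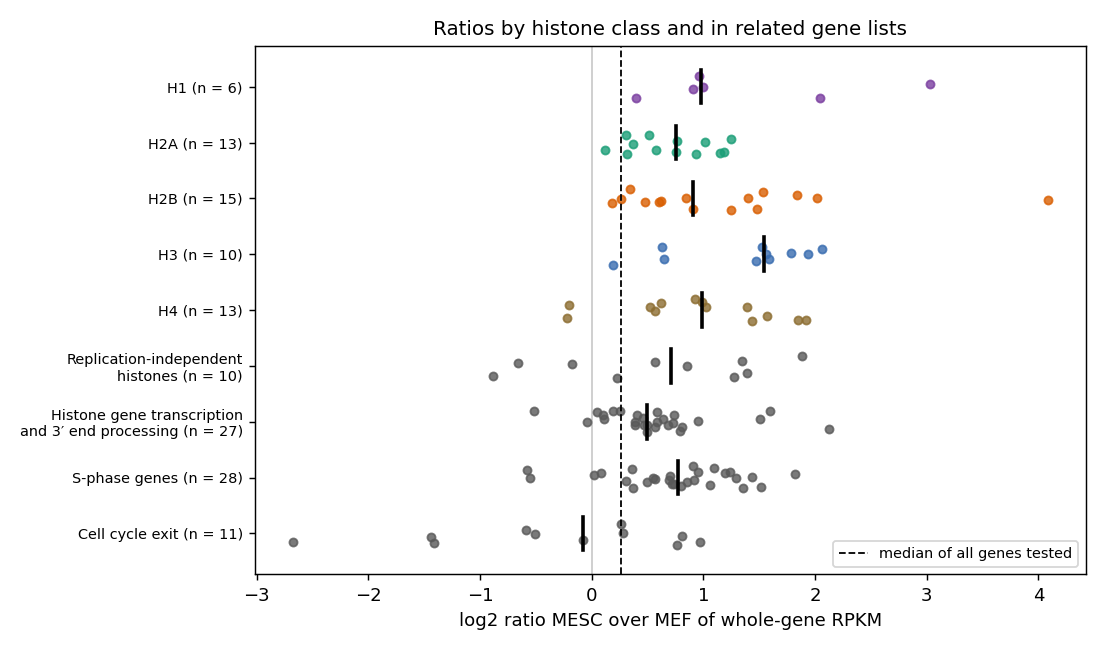
Log2 ratio MESC over MEF of whole-gene RPKM for each tested gene, by histone class and in related gene lists, with a black bar at each median and a dashed line at 0.27, the median of all genes tested; 3 reads stand for any lower count. H3 genes have the highest median, 1.55, and the cell cycle exit list the lowest, -0.08.

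Engaged polymerase was denser just past the stem-loop than over the message. This was measured at unique starts over 48 genes with a stem-loop and no other annotated gene on the same strand in the next 2 kb. In MESC these held 5513 reads from start to stem-loop and 30463 in the 2 kb past it. In MEF they held 1902 and 15633. In MESC the density relative to that from the start to the stem-loop was 2.91 (2.82 to 3.00) in the first 250 bp past the stem-loop, 2.12 (2.05 to 2.19) from 251 to 500 bp, 0.45 (0.43 to 0.46) from 501 to 1000 bp and 0.07 (0.07 to 0.08) from 1001 to 1500 bp. In MEF the same ratios were 2.75 (2.60 to 2.90), 2.85 (2.70 to 3.00), 1.34 (1.27 to 1.42) and 0.32 (0.30 to 0.35). With each position counted once the ratios were smaller near the stem-loop, at 1.90 in MESC and 1.96 in MEF in the first 250 bp and 1.497 in MESC and 1.929 in MEF from 251 to 500 bp. By the same counting they were 0.603 in MESC and 1.204 in MEF from 501 to 1000 bp and 0.14 in MESC and 0.41 in MEF from 1001 to 1500 bp. Over the whole 2 kb, with every read counted, the relative density was 0.76 (0.74 to 0.78) in MESC and 1.13 (1.07 to 1.18) in MEF. With each position counted once it was 0.62 (0.59 to 0.65) in MESC and 0.92 (0.86 to 0.98) in MEF, below 1 in both. Other genes were measured from the annotated end, since they have no stem-loop to count from. Past the end of 278 genes under 2 kb the density at unique starts relative to the gene stayed between 0.61 and 0.74 in MESC and between 0.56 and 0.69 in MEF in every window out to 2 kb. For genes of 2 kb or more the density over the 2 kb past the end relative to the gene had a median of 1.44 in MESC over 10251 genes and 1.38 in MEF over 9381 genes. By that same measure from the annotated end, histone genes with no other gene in the window had a median of 0.41 in MESC over 48 genes and 0.81 in MEF over 43. Other genes under 2 kb had medians of 0.46 in MESC over 257 genes and 0.48 in MEF over 182. The rise past the stem-loop was seen gene by gene, although not in all. Among histone genes with at least 50 reads from 500 bp before to 2 kb past the stem-loop end, the 250 bp bin with the highest density was the first past the stem-loop in 24 of 45 and the next in 10 of 45 in MESC. In MEF it was the first in 10 of 41, the next in 14 of 41 and a bin from 501 to 1250 bp in 12 of 41.

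**Figure D3:**
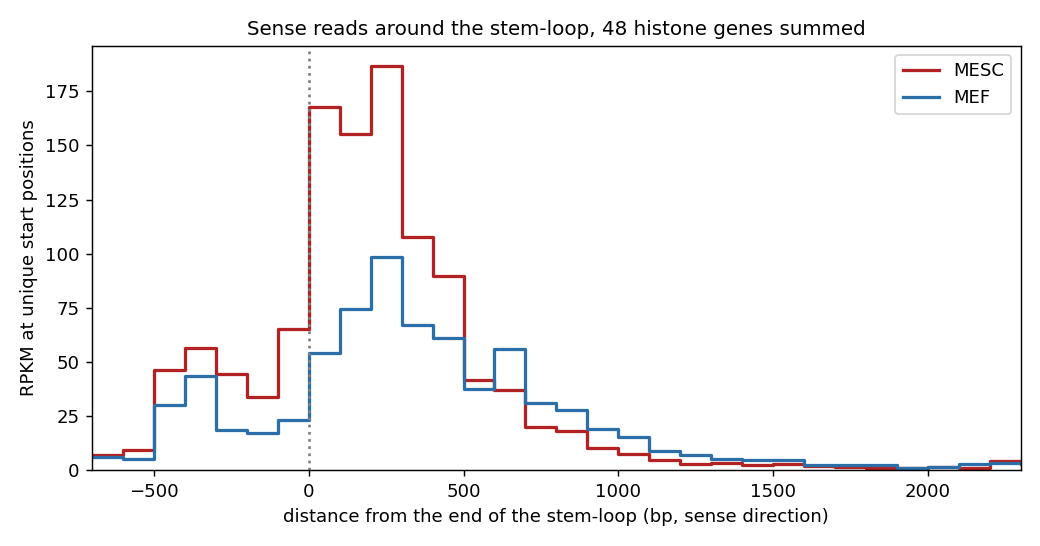
RPKM at unique start positions in 100 bp bins against distance from the end of the stem-loop in bp, summed over 48 histone genes, for MESC (red) and MEF (blue), 1 pooled read set each. Both peak at 201 to 300 bp, at 186.7 RPKM in MESC and 98.5 RPKM in MEF, and the MEF line lies above the MESC line in every bin from 601 to 2000 bp.

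The zone past the stem-loop reached further in MEF. Of the unique reads in the 2 kb past the stem-loop, 18.0% (17.6 to 18.5) in MESC and 39.0% (38.2 to 39.8) in MEF lay beyond 500 bp, and 3.52% in MESC and 9.70% in MEF beyond 1000 bp. Gene by gene, with at least 50 such reads in both, the share beyond 500 bp was higher in MEF for 38 of 39 genes. The other one, Hist2h2bb, had 0 in both, with 128 unique starts in its whole window. With each position counted once, the share was higher in MEF for 34 of 37 genes. It was higher for 34 of 37 with MESC reads of 36 bases only and for 36 of 37 with those of 35 bases only. The median share over the 39 was 18.6% in MESC and 36.3% in MEF. Other genes were compared in a like way, but from the annotated end, and those of 2 kb or more at all starts. The share was higher in MEF for 912 of 1266 genes of 2 kb or more (72.0%) and for 28 of 50 shorter genes (56.0%). Their summed shares were 76.4% in MESC and 79.4% in MEF for the longer genes and 75.0% in MESC and 74.7% in MEF for the shorter.

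Single genes show the size of the shift. For Hist1h3c, the H3 gene with the most reads in this zone, 5.10% of 2864 reads in MESC and 16.8% of 1491 reads in MEF lay beyond 500 bp. Hist1h4i gave 13.8% of 2520 reads in MESC and 24.3% of 846 in MEF, and Hist1h1d 11.7% of 1381 reads in MESC and 61.4% of 516 in MEF. These are genes of different classes, and each had the higher share in MEF. Hist2h4, at 46.8% of 836 reads in MESC and 74.4% of 767 in MEF, already had a long zone in MESC. The smallest differences among genes with reads beyond 500 bp were those of Hist1h2bh, 27.6% in MESC and 28.8% in MEF, and Hist1h2bp, 20.4% in MESC and 23.1% in MEF.

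**Figure D4:**
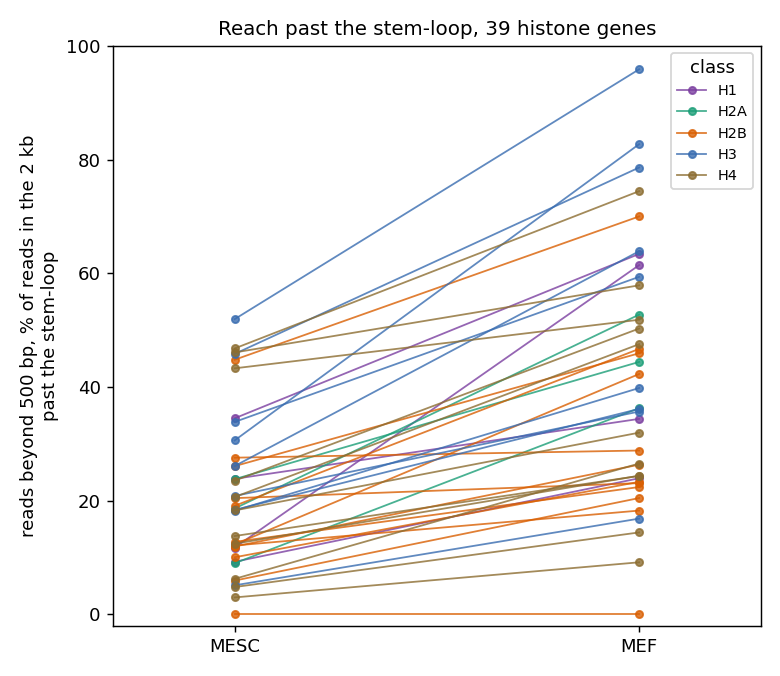
Share of reads in the 2 kb past the stem-loop that lay beyond 500 bp, in percent, for 39 histone genes, with a line from the MESC value on the left to the MEF value on the right coloured by class. The share is higher in MEF for 38 of the 39, with medians of 18.6% in MESC and 36.3% in MEF, and the flat line at 0 is Hist2h2bb.

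In reads summed over the 48 genes, the direction of the difference between the cell types thus changed along the genes. Not every gene showed this change, and the genes that did were not counted. Hist1h4k, with 43.3% of 751 reads in MESC and 51.8% of 247 in MEF beyond 500 bp, did not show it. The summed ratio MESC over MEF was 2.22 (2.11 to 2.34) from the start to the stem-loop, 2.35 (2.28 to 2.43) in the first 250 bp past it and 1.66 (1.60 to 1.71) from 251 to 500 bp. It was 0.74 (0.71 to 0.77) from 501 to 1000 bp, 0.51 (0.47 to 0.56) from 1001 to 1500 bp and 0.63 (0.54 to 0.73) from 1501 to 2000 bp. Under all 3 other scalings the first 3 windows stayed above 1 and the last 3 below 1. The share beyond 500 bp stayed lower in MESC with MESC reads of 35 bases only (16.2%) or 36 bases only (19.4%), with MESC thinned to the depth of MEF (17.9%), with each position counted once (32.4% in MESC and 47.9% in MEF) and without the 5 genes with the most MEF reads (19.2% in MESC and 42.2% in MEF).

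**Figure D5:**
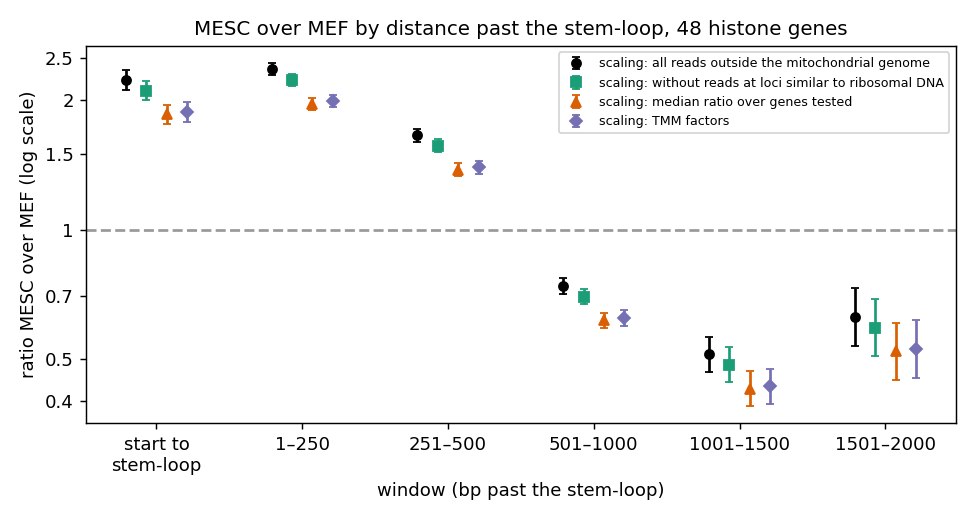
Ratio MESC over MEF (log axis) of summed unique reads of 48 histone genes in the stretch up to the stem-loop and in windows past it, with exact 95% counting intervals and 1 symbol for each of 4 library scalings. The ratio lies above 1 up to 500 bp past the stem-loop and below 1 beyond it under every scaling shown.

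Upstream of the histone genes, reads on the opposite strand came mainly where another gene starts there. In the 300 bp before the start, they made up 27.2% (26.3 to 28.1) of upstream antisense plus first 300 bp sense reads in MESC and 32.0% (30.6 to 33.4) in MEF. For 38 genes with a divergent gene start within 2 kb the shares were 37.0% in MESC and 38.8% in MEF, and the largest counts belonged to the partner gene, as upstream of Hist1h2bf (446 reads in MESC and 257 in MEF), whose window runs into Hist1h2ad. For 29 genes without such a start they were 10.5% in MESC and 23.8% in MEF. That gap rests on 1 gene, Hist2h2ab, with 145 antisense reads in MESC and 362 in MEF in a window that lies past the end of Hist2h2ac. Without it the shares were 6.74% (5.91 to 7.64) in MESC and 7.45% (6.23 to 8.82) in MEF over 28 genes. Over 9801 other protein-coding genes the summed shares were 39.2% in MESC and 34.8% in MEF, and their medians were 17.6% in MESC and 9.76% in MEF over those with at least 20 sense reads. Upstream of each H1 gene stood at most 13 antisense reads in either read set. Hist1h1a, the H1 gene with the highest density in MESC, had 4 antisense and 392 sense reads in MESC and 0 antisense and 94 sense reads in MEF.

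Genes that act on histone genes or their messages had a median log2 ratio of 0.50, over 27 tested. Of these, 1 passed 4-fold and 3 passed 2-fold in MESC, and none passed 2-fold in MEF. Of all genes tested, 9.58% passed 4-fold and 20.9% passed 2-fold in MESC, and 13.3% passed 2-fold in MEF. Zfp473, which encodes a zinc finger protein of the U7 complex, had the highest ratio, 4.35 (2.83 to 6.96), followed by Pou2f1, which encodes the octamer-binding factor Oct-1, at 3.02 (2.71 to 3.36). Lsm11, which encodes a ring subunit of the U7 complex, had the lowest, 0.70 (0.56 to 0.87), from 164 reads in MESC and 180 in MEF, and the cleavage factor gene Cstf2t a log2 ratio of -0.04. Slbp, the stem-loop binding protein gene, held 670 reads in MESC and 364 in MEF, a log2 ratio of 0.50, and Npat, the coactivator of histone genes, 476 reads in MESC and 234 in MEF, a log2 ratio of 0.64.

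S-phase genes had a median log2 ratio of 0.77 over 28 tested. Of these, 9 passed 2-fold in MESC, against 20.9% of all genes tested, and none in MEF, against 13.3%. The highest were the chromatin remodeller gene Hells (1523 reads in MESC and 330 in MEF) and the histone chaperone gene Nasp, at log2 ratios of 1.82 and 1.52. The lowest were Tk1 (249 reads in MESC and 286 in MEF) and Rrm1, both of nucleotide supply, at -0.58 and -0.55. Replication-independent histone genes make variants such as H3.3, mostly from polyadenylated messages and not only in S phase. Their median log2 ratio was 0.71 over 10 tested. At 2-fold, 4 passed in MESC, against 20.9% of all genes tested, and none in MEF, against 13.3%. The centromeric H3 gene Cenpa was highest at a ratio of 3.69 (2.86 to 4.80), followed by the H1 variant gene H1fx at a log2 ratio of 1.39. The macroH2A genes H2afy and H2afy2 were lowest at ratios of 0.54 (0.47 to 0.62) and 0.63 (0.51 to 0.78). A list on cell cycle exit also holds the D-type cyclin genes Ccnd1 and Ccnd2 that drive G1 progression. Its median log2 ratio was -0.08 over 11 tested genes. Of these, 3 passed 2-fold in MEF, against 13.3% of all genes tested, and none in MESC, against 20.9%. Ccnd2, with 153 reads in MESC and 748 in MEF, passed 4-fold in MEF and had the lowest log2 ratio, -2.67, followed by the inhibitor gene Cdkn2c at -1.44, while the inhibitor genes Cdkn1a and Cdkn2a were highest at 0.97 and 0.81. No list was tested against another.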

How the data were processed

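Each line of the deposited files is 1 aligned read, so counts are raw read counts. Per the series' design text and the file headers, the authors aligned reads with Eland to mm9 without repeat masking and removed those in regions that RepeatMasker annotates as similar to rRNA. How Eland treated reads with several matches, and its version, are not stated there. The file headers state that each cell type's samples were pooled, so the edgeR test foreseen for separable samples was not made and no p-value was computed. The listed position was the 5′ end on either strand: with every 400th read sampled, 93.0% of MESC and 95.5% of MEF reads equalled NCBIM37 there with at most 2 mismatches.

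Sense reads were counted by 5′ end over 1 GENCODE model per gene, the longest transcript, scaled to reads outside the mitochondrial genome. Genes with at least 20 reads in 1 library and no same-strand overlap were tested. Genes counted as different at a ratio of 4 or 2, with 3 reads standing for any lower count. Loci similar to ribosomal DNA still held 11.6% of MESC and 16.4% of MEF reads and stayed in the scaling total. Distinct positions were 74.7% of MESC and 71.4% of MEF reads. A start was unique if its 35-mer matched the genome 1 time. Past the stem-loop, genes entered the gene-by-gene comparison with at least 50 reads in both libraries.

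Named genes were, per class, the 3 with the highest MESC RPKM, the highest and the lowest ratio, the testis histones, all genes past 4-fold, and the extremes of each list; Hist1h1b, Hist1h1e, Hist1h3c, Hist4h4, Hist3h2a, Hist1h2ah, Slbp, Npat and the genes named for their reach or antisense reads were chosen after their values were seen. The genes and lists were chosen with earlier results of these data known. Intervals are exact conditional Clopper-Pearson intervals. The fold rule and intervals were tested on simulated data. Tools were Python 3.11.15, numpy 2.4.6, pandas 2.3.3, scipy 1.17.1, matplotlib 3.10.9, and edgeR 4.0.16 in R 4.3.3 for TMM factors only.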

Additional observations from a re-analysis of the deposited data

How the results depend on the processing

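The number of histone genes at least 4-fold higher in MESC, 5, was 2 with scaling that leaves out loci similar to ribosomal DNA, with the median ratio over genes tested, with TMM factors and with each position and strand counted once, and these 2 were Hist1h1t and Hist3h2ba each time. The number at least 2-fold higher in MESC, 26, was 7 with positions counted once, and the share went from above that of all genes (45.6% against 20.9%) to below it (13.0% against 18.1%). A gene can then hold at most 1 read per base and strand. The median log2 ratio, 0.96, was 0.69 under the median ratio, 0.71 under TMM, 0.48 with positions counted once, 1.09 with MESC reads of 35 bases only, 0.76 with those of 36 bases only and 0.77 when counted to 2 kb past the stem-loop. Over all genes tested, the share of 4-fold calls that were higher in MESC, 62.4%, was 54.1% under the median ratio, 54.7% under TMM and 51.2% with reads of 35 bases. The share of reads on the 67 genes was 0.138% in MESC and 0.107% in MEF with positions counted once, 0.330% in MESC and 0.207% in MEF without the loci similar to ribosomal DNA in the total, and 0.223% in MESC and 0.133% in MEF at unique starts.

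Density in the 2 kb past the annotated gene end relative to the gene was 1.46 in MESC and 1.61 in MEF. It became 2.18 in MESC and 2.53 in MEF over 1 kb, 1.07 in MESC and 1.21 in MEF without genes in the window, 1.37 in MESC and 1.66 in MEF with positions counted once, 1.35 in MESC and 1.46 in MEF at unique starts and 1.27 in MESC and 1.43 in MEF from the stem-loop. At unique starts from the stem-loop and without genes in the window it was 0.76 in MESC, below 1, and 1.13 in MEF. With positions also counted once it was 0.62 in MESC and 0.92 in MEF, so the MEF value moved below 1. The upstream antisense share, 27.2% in MESC and 32.0% in MEF, became 18.8% in MESC and 25.4% in MEF over 500 bp, 24.9% in MESC and 28.5% in MEF with positions counted once, 10.5% in MESC and 23.8% in MEF without divergent starts and 6.74% in MESC and 7.45% in MEF when Hist2h2ab was also left out. No histone gene was at least 2-fold higher in MEF under any alternative, and the median log2 ratio stayed above 0 under each. The cause of these changes was not tested.

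No paired analysis was possible because the reads of a cell type are pooled and carry no sample name, and for the same reason none was left out in turn. Counts in short genes are limited by repeated sequence, and intervals do not cover variation between cultures. The settings counted from the start to or past the stem-loop, without long models, without Hist2h2ab and for the reach were chosen after seeing the data.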
